A study of Bos taurus with 16 samples.

Results

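The genes of the MAP kinase cascade and the dual-specificity phosphatases described here had 48 probes for 47 genes, of 21475 probes on the array in all. The members were the probes whose gene name, or whose bracketed symbol in the probe description, was MAPK, MAP2K, MAP3K, MAP4K, MAPKAPK or DUSP followed by a number, with the brightest probe taken for each gene. MAP4K4 had 2 such probes. The list held 4 MAP4K, 11 MAP3K, 6 MAP2K, 10 MAP kinase, 2 MAPKAPK and 14 DUSP genes. The rule itself used no measured difference, although it was set with earlier results of these data known.

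Signals that reach a cell's surface are passed along this cascade by phosphorylation, from the MAP4K and MAP3K kinases to the MAP2K kinases and then to the MAP kinases of the ERK, JNK and p38 branches. The MAP kinases act on transcription factors and on further kinases such as the MAPKAPK proteins, and many DUSP proteins switch the MAP kinases off again by removing the phosphates. In monocytes and macrophages the cascade is known for its place downstream of Toll-like, growth factor and stress receptors and for its control of cytokine production.

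The question was how RNA for this cascade differs between CD14+ cells of the pregnant uterus and CD14+ cells of the blood. Interplacentomal endometrium from the uterine horn with the fetus, and blood from the heart, came from 4 pregnant cows (Bos taurus) at an abattoir, at days 164, 239, 242 and 248 of pregnancy for animals 1 to 4. Endometrial cells were dispersed with collagenase, mononuclear cells were separated on a density gradient in both tissues, and CD14+ cells were sorted by flow cytometry in 2 rounds. No animal received a treatment, all were pregnant, and strain and age are not given in the sources used here. The labels put the purity at 90 to 95% in the endometrium and 98 to 99% in the blood. Amplified RNA of both tissues of an animal was hybridized on 2 arrays with 2 colors, 1 on each of 2 slides, with the dyes swapped in animals 1, 2 and 4.

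The authors' normalized log2 intensities were used, and a log2 ratio is endometrium minus blood within an animal, averaged over its 2 arrays. Before any ratio was taken, the columns were matched to the scanner files by rank. Each scanner channel was given the column's values in its own rank order, and the spots of a probe were sorted. After that, 100% of probes in each of the 16 columns equaled the labeled channel of a scanner file within 0.001. The match is thus one of rank order, and the log2 scanner signal of that file correlated with the column at r of 0.991 to 0.997. That file was in every case not the sample's own but the one deposited under the other array of the same animal. Read with the labels of the samples they are attached to, the scanner files turn the sign of the ratios in animals 1, 2 and 4. The trophoblast hormone PRP1 then had log2 ratios of -4.16, -3.98, 4.53 and -4.31 in animals 1 to 4, against 4.87, 5.21, 5.24 and 5.68 in the authors' values. Directions below follow the authors' values, whose columns are tied to the samples.

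Markers that define the sorted cells and their neighbors were read first. CD14, the receptor on which the cells were sorted, had log2 levels of 16.12, 5.76, 8.85 and 6.94 in the blood of animals 1 to 4 and of 14.04, 6.07, 9.4999 and 7.38 in the endometrium. The T cell receptor chain CD3E had 8.03, 14.07, 13.01 and 14.24 in blood and 10.29, 15.18, 14.72 and 13.98 in endometrium. Animal 1 stood apart in both tissues, with the highest CD14 and the lowest CD3E, and the libraries of animals 2 to 4, which carry the same CD14+ label, had far less CD14 and more CD3E. Over the members described below, the median log2 ratio was -0.64 in animal 1 and -0.32 without it, and 0 members were called without it.

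Of the 6 monocyte and macrophage markers, 3 were higher in the endometrium in 4 of 4 animals and none lower. The means ran from -1.36 for ITGAM to 4.81 for FCGR1A, and the summed level was 772 to 136166 in blood and 2670 to 188253 in endometrium. Of the 8 T and NK cell markers, 3 were higher and 1, NCR1, was lower in 4 of 4 animals, with a summed level of 7356 to 83975 in blood and 53319 to 267647 in endometrium. Of the 4 granulocyte markers measured, 1 was lower in 4 of 4 animals, and their summed level was 6585 to 486735 in blood and 902 to 39366 in endometrium. Of the 6 stromal markers 4 were higher in 4 of 4 animals, 2 of them called, with a summed level of 113 to 2791 in blood and 198 to 217552 in endometrium.

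All 7 epithelial markers were higher in the endometrium in 4 of 4 animals, 5 of them called, with a summed level of 1075 to 6521 in blood and 9830 to 153111 in endometrium. Of the 5 genes measured on the trophoblast list 4 were called higher, and the list's summed level was 2474 to 9067 in blood and 38049 to 140168 in endometrium. The remaining gene of the list, under the symbol PAG1, had a mean log2 ratio of -2.10 and was lower in the endometrium in 3 of 4 animals. The paper names a placental glycoprotein PAG1B, and whether the PAG1 probe measures a placental gene was not determined. PAG1 is therefore not read as a trophoblast marker here. Its blood levels of 9.55, 12.77, 11.11 and 10.97 were the highest of the list in animals 2 to 4 and enter the summed blood level. The 5 B cell markers had a median log2 ratio of -2.57, and their summed level was 21852 to 137907 in blood and 10277 to 56835 in endometrium. No marker of any list was without a channel well above background in either tissue. Of the heat shock and immediate early genes that tissue dispersal can move, 7 of 9 were higher in the endometrium in 4 of 4 animals. The part that other cells or the dispersal had in the results below was not tested.

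The sequences that carried some of the results show what the array could see of these genes. MAP4K4 is represented by its second probe, LOC506022 is described as similar to MAP3K5, LOC536649 is described as similar to DUSP16, and DUSP15 is shown as a relative that was not above background. In each sequence the capitals mark the longest run shared with a comparison probe, which was the brighter MAP4K4 probe for MAP4K4, the MAP3K5 member for LOC506022, and each other for LOC536649 and DUSP15.
MAP4K4: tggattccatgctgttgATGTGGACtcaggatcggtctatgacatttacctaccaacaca
LOC506022: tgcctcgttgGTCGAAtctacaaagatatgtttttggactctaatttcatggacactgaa
LOC536649: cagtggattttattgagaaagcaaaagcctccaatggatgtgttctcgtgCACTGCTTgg
DUSP15: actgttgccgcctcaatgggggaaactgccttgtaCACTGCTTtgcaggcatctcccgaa

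Over all 1128 pairs of the 48 member probes the longest shared run was 11 of 60 bases. The 8 bases shared by LOC536649 and DUSP15 lie in the stretch that encodes the catalytic signature of dual-specificity phosphatases. Where each probe lies in its transcript was not determined.

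Of the 47 genes, 43 were tested, since in blood or in endometrium their probe stood well above background in 4 or more of 8 channels. The other 4 were the phosphatases DUSP9, DUSP13, DUSP15 and DUSP22, each well above background in at most 2 channels of a tissue. With limma, 0 of the 43 members were called at a fold change over 2 and an adjusted p of 0.05 or less, a criterion met by 1.35% of the 16653 tested probes, 1.23% higher and 0.12% lower in the endometrium. At an unadjusted p of 0.05 or less with the same fold change, 9 members had lower values in the endometrium (20.9% of the members tested, against a background of 8.05% of probes) and 3 had higher values (6.98%, against 7.98%). Lower values in 4 of 4 animals were found for 12 members (27.9%, background 15.2%) and higher values in 4 of 4 animals for 4 members (9.30%, background 9.82%). The 4 blood levels lay above the 4 endometrial levels without overlap for 7 members (16.3%, background 3.37%), and the reverse was found for 2 (4.65%, background 2.7%). The median level of the tested members, 11.61 on the log2 scale, was above the 9.40 of all tested probes, and whether the difference in brightness enters these shares was not tested.

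The median log2 ratio of the 43 members was -0.42, against -0.14 for all tested probes. Taken by animal it was -0.64, -0.61, 0.25 and -0.23, so that animal 3 had a median of the other sign. The medians over all probes were -0.24, -0.10, -0.13 and -0.05. Fewer cells of a type that holds an RNA and less of that RNA per cell cannot be told apart in these bulk samples.

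**Figure D1:**
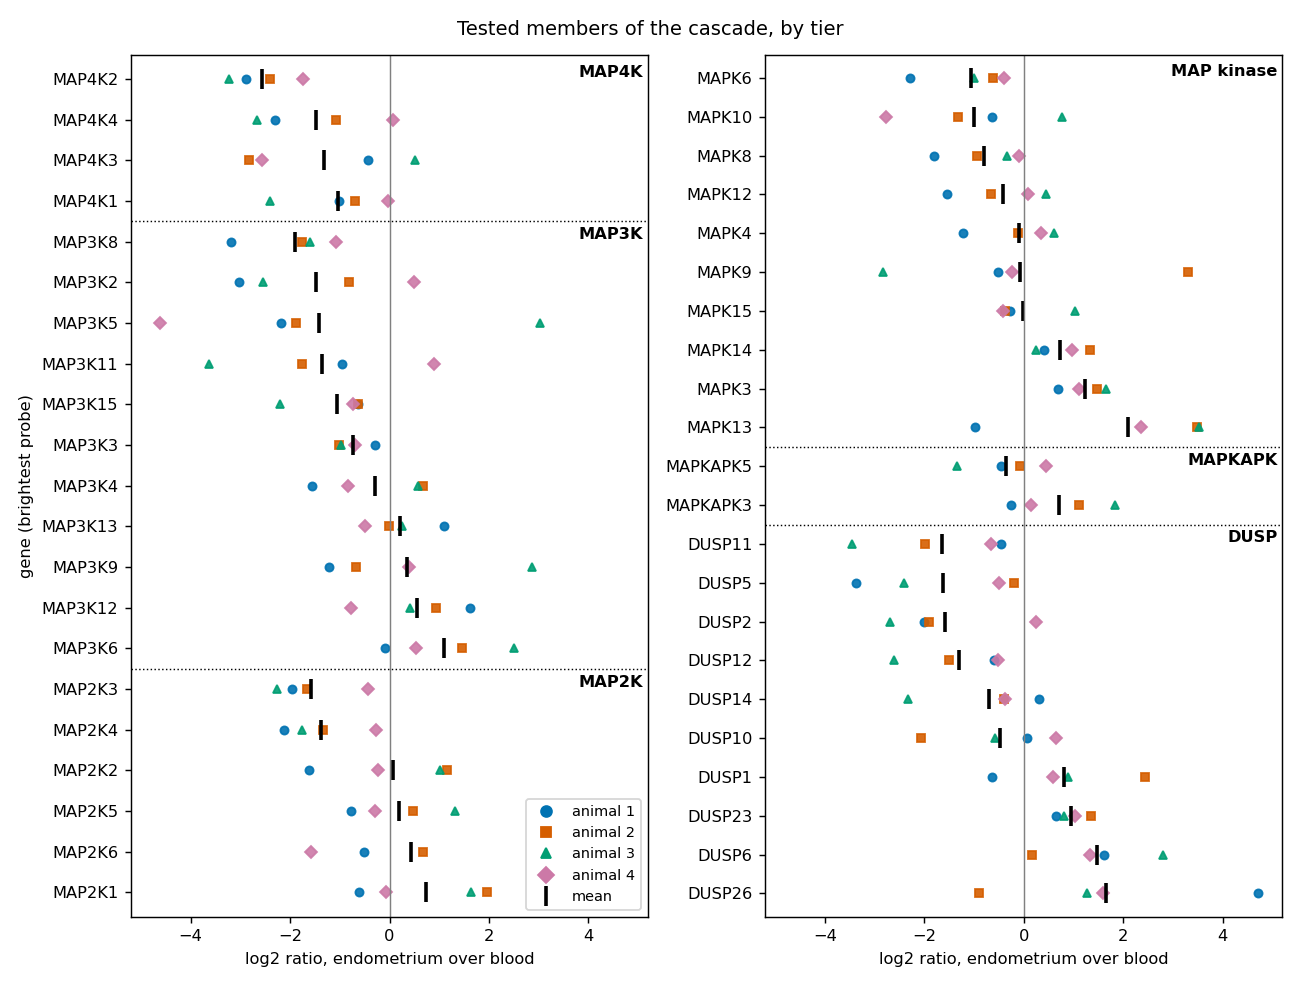
Log2 ratios of endometrium over blood (x axis) for the 43 tested members (y axis), grouped by tier; colored points are the 4 animals and black bars their mean. The 4 MAP4K means lie between -2.57 and -1.04, while every other tier holds means on both sides of 0.

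The first tier, the MAP4K kinases, had mean log2 ratios of -2.57 to -1.04 in 4 of 4 genes, with a median of -1.40. MAP4K2, the germinal center kinase that acts upstream of JNK, had log2 levels of 11.40, 10.67, 11.004 and 11.27 in the blood of animals 1 to 4 and of 8.51, 8.26, 7.77 and 9.53 in the endometrium. Every blood level was above every endometrial level, and the mean log2 ratio of -2.57 ± 0.64 (SD, n = 4) is a 5.94-fold higher level in blood. The standard error of limma was 0.48 and the adjusted p was 0.0653, the lowest of the members. MAP4K2 was called in the alternative restricted to probes above background in all channels and in the fits to the 8 arrays with a dye or slide term, where its adjusted p was as low as 0.016, and its adjusted p reached 0.327 over the alternatives.

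MAP4K1, a kinase of blood cells that restrains lymphocyte signaling, had blood levels of 13.10, 14.46, 14.42 and 14.66 and endometrial levels of 12.08, 13.76, 12.02 and 14.62. It was lower in the endometrium in 4 of 4 animals by a mean log2 ratio of -1.04 ± 1.00, with a difference of -0.03 in animal 4. MAP4K4, chosen after its values were seen, had blood levels of 13.29, 11.89, 12.46 and 11.78 and endometrial levels of 10.99, 10.82, 9.81 and 11.86 on its brightest probe. Animal 4 had nearly equal levels in both tissues, and the mean log2 ratio was -1.48 ± 1.24 (adjusted p = 0.295).

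The second MAP4K4 probe, shown above, had log2 ratios of -2.77, -0.43, -4.34 and -0.41, and its blood levels did not overlap its endometrial levels. An EST probe that is assigned to MAP4K4 but lies outside the rule had -1.87, 0.33, -1.07 and -0.20. All 3 probes had mean log2 ratios below 0, from -1.99 to -0.70, and their largest negative ratio fell in animal 1 or 3. MAP4K5, which has no probe by the rule, had the other direction on its EST probe, with blood levels of 13.51, 13.30, 12.79 and 13.34 and endometrial levels of 13.60, 14.24, 13.79 and 13.85. Its tissues did not overlap, and the mean log2 ratio was 0.63 ± 0.43 (limma, adjusted p = 0.527).

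In the same animals the B cell markers had median log2 ratios of -2.77, -3.21, -4.44 and -0.50, so that animal 4 had the smallest difference in the B cell list and also in MAP4K1, MAP4K2 and MAP4K4. MAP4K3 did not share this, with log2 ratios of -0.43, -2.82, 0.52 and -2.57, and animal 4 had the smallest ratio for 41.0% of all tested probes. The T and NK cell markers had a median of 1.31, from -0.89 for NCR1 to 3.41 for CD7. Their part in the MAP4K values was not tested.

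Of the 11 MAP3K genes, 3 were lower in the endometrium in 4 of 4 animals, none was higher in 4 of 4, and 8 had mixed signs. The median log2 ratio was -0.74. MAP3K8, the kinase that couples Toll-like receptors to the ERK branch in macrophages, had blood levels of 15.77, 11.65, 13.29 and 13.10 and endometrial levels of 12.58, 9.89, 11.70 and 12.02. The tissues overlapped because animal 1 was high in both and animal 2 was low in both, but within every animal the endometrial level was the lower, with log2 ratios of -3.19, -1.75, -1.59 and -1.08. The mean was -1.90 ± 0.91, with an adjusted p of 0.185.

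MAP3K15, a relative of the stress-activated kinase ASK1, had blood levels of 11.93, 12.39, 13.10 and 12.39 and endometrial levels of 11.29, 11.75, 10.90 and 11.66. The tissues did not overlap, and animal 3 had the largest difference, with a log2 ratio of -2.20 against -0.64, -0.64 and -0.73 in animals 1, 2 and 4. MAP3K3, a kinase of the MEKK group and the third with lower values in 4 of 4 animals, had blood levels of 14.63, 14.55, 14.63 and 15.21 and endometrial levels of 14.34, 13.54, 13.65 and 14.52. Its tissues also did not overlap, and its log2 ratios of -0.29, -1.01, -0.98 and -0.69 had a mean of -0.74 ± 0.33 (adjusted p = 0.449).

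MAP3K5, which is ASK1 itself, had the largest spread of all members. Its blood levels were 11.50, 7.38, 6.95 and 8.08 and its endometrial levels 9.32, 5.50, 9.97 and 3.45. The log2 ratio was 3.02 in animal 3 and -4.62 in animal 4, with an SD of 3.20, but the endometrial level of animal 4 lay below the lowest signal that stood well above background on its arrays. With that lowest signal in its place the ratio of animal 4 was -2.94 and the SD 2.72, still the largest of the members, and no direction can be read from the mean of -1.42. The remaining 7 MAP3K genes had means between -1.47 for MAP3K2 and 1.1 for MAP3K6, each with mixed signs over the animals.

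The array held 2 more probes described as similar to MAP3K5, which the rule did not take and which were chosen after their values were seen. LOC531656 had blood levels of 10.40, 9.44, 6.94 and 8.32 and endometrial levels of 7.73, 6.78, 5.64 and 5.50. LOC506022, whose sequence is given above, had blood levels of 10.30, 8.28, 8.23 and 8.34 and endometrial levels of 7.98, 2.50, 3.48 and 7.91. Both were lower in the endometrium in 4 of 4 animals, animal 3 included, where the member probe had the opposite sign. In that animal 1 endometrial array of LOC531656 lay below the lowest signal well above background. With that signal in its place the ratio of LOC531656 in animal 3 was -1.04 rather than -1.30.

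The mean log2 ratio was -2.36 ± 0.71 for LOC531656 (limma, adjusted p = 0.0966) and -3.32 ± 2.42 for LOC506022 (adjusted p = 0.180). LOC506022 had 4 of its 8 endometrial channels well above background, and its endometrial levels in animals 2 and 3 lay below the lowest signal well above background. With that signal in their place the ratios of these animals were -3.77 and -2.51 and the mean -2.26, so that the values given are no exact differences. The member probe had a run of 6 bases in common with LOC506022, and the reference gene table had no entry for either of the further probes.

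Of the 6 MAP2K genes, 2 were lower in the endometrium in 4 of 4 animals and 4 had mixed signs. MAP2K3, which activates p38, had blood levels of 16.90, 16.67, 17.19 and 16.42 and endometrial levels of 14.93, 15.01, 14.93 and 15.998, without overlap. MAP2K4, which activates JNK and p38, had blood levels of 13.50, 12.99, 13.39 and 13.43 and endometrial levels of 11.39, 11.66, 11.63 and 13.15. In both genes animals 1 to 3 differed by more than 1 log2 unit and animal 4 by -0.42 for MAP2K3 and -0.28 for MAP2K4.

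The mean log2 ratio was -1.58 ± 0.81 for MAP2K3 (adjusted p = 0.225) and -1.37 ± 0.80 for MAP2K4 (adjusted p = 0.263). MAP2K6, a further activator of p38, had log2 ratios of -0.52, 0.67, 3.14 and -1.58. Its mean of 0.43 therefore rested on animal 3, and without that animal it was -0.48.

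The ERK activators MAP2K1 and MAP2K2 resembled each other in which animals stood on which side of 0. MAP2K1 had blood levels of 14.96, 12.61, 12.42 and 13.24 and endometrial levels of 14.35, 14.57, 14.06 and 13.16. MAP2K2 had log2 ratios of -1.62, 1.15, 1.02 and -0.24, beside -0.61, 1.96, 1.64 and -0.08 for MAP2K1. Both were higher in the endometrium in animals 2 and 3 and lower in animals 1 and 4, and the means of 0.73 ± 1.27 and 0.08 ± 1.29 did not exceed the spread between animals. MAP2K5, the activator of ERK5, had a mean of 0.18.

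Among the 10 MAP kinases, 2 were lower and 2 higher in the endometrium in 4 of 4 animals. MAPK3 (ERK1), a kinase of the ERK branch, had blood levels of 12.35, 12.80, 11.21 and 11.84 and endometrial levels of 13.04, 14.28, 12.86 and 12.95. Every endometrial level was above every blood level. The mean log2 ratio was 1.23 ± 0.42 (limma, SE = 0.45, adjusted p = 0.263), and it stayed between 1.09 and 1.41 over the alternatives run on the authors' values and on the scanner intensities read to match them.

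**Figure D2:**
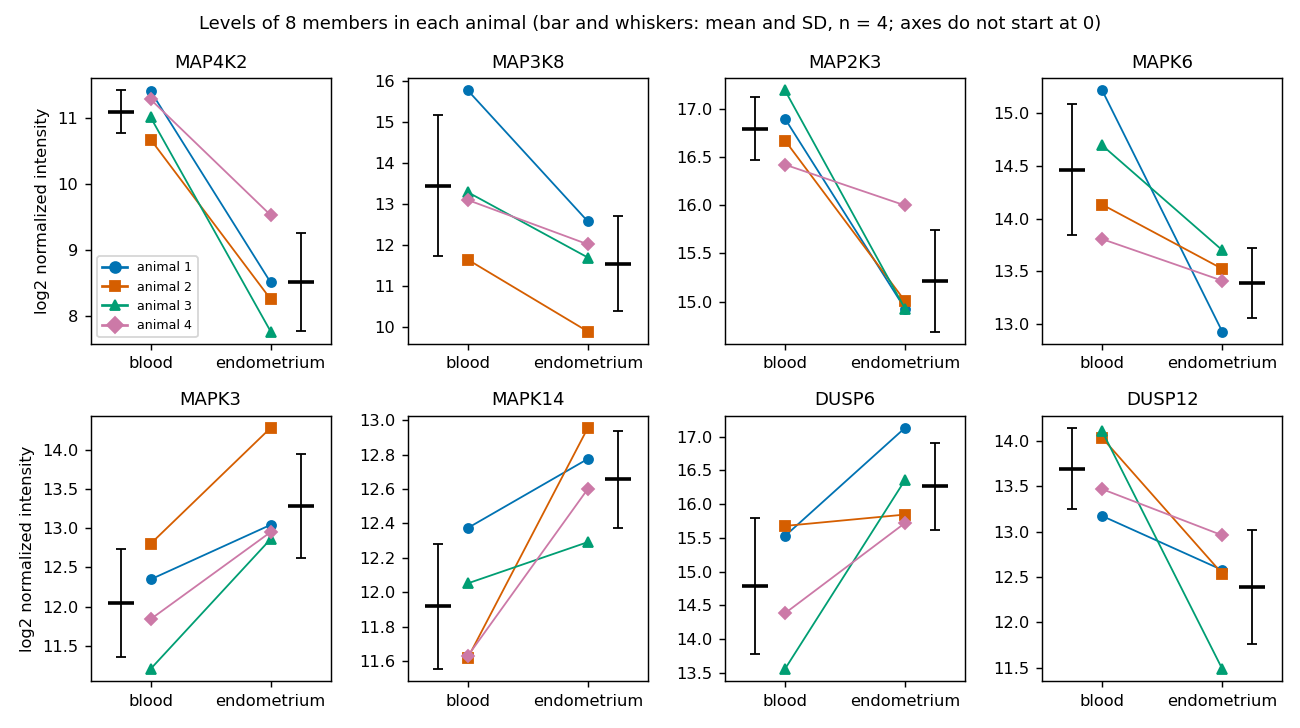
Normalized log2 intensity (y axis) of 8 members in blood and endometrium of each animal; lines join the tissues of 1 animal, and the bar with whiskers is the mean and SD of 4 animals. MAP4K2, MAP2K3, MAPK6 and DUSP12 show blood above endometrium without overlap, MAPK3 and DUSP6 the reverse.

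The JNK kinases were lower or mixed. MAPK8 (JNK1) had blood levels of 9.32, 9.66, 9.29 and 9.24 and endometrial levels of 7.52, 8.73, 8.96 and 9.14, which did not overlap, although the ratio in animal 4 was -0.09. Its mean log2 ratio was -0.79 ± 0.76 (adjusted p = 0.473). MAPK9 (JNK2) had log2 ratios of -0.52, 3.30, -2.83 and -0.23, with a mean of -0.07. It had the second largest spread of the members as measured, but its endometrial level in animal 3 lay below the lowest signal well above background, and with that signal in its place the ratio was -1.18, the mean 0.34 and the SD 2.00. MAPK10 (JNK3), known mostly from the nervous system, was well above background in 4 blood and 2 endometrial channels.

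The p38 kinases held 1 gene that was higher in 4 of 4 animals. MAPK14 (p38 alpha), the main p38 kinase of macrophages, had blood levels of 12.37, 11.62, 12.05 and 11.63 and endometrial levels of 12.77, 12.95, 12.29 and 12.60. It was higher in the endometrium within 4 of 4 animals, with a mean log2 ratio of 0.74 ± 0.51 and an adjusted p of 0.471, and animal 3 in the endometrium lay below animal 1 in the blood. A dimmer EST probe assigned to MAPK14 did not share that direction and had log2 ratios of -0.47, 0.85, -2.43 and 0.42.

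MAPK13 (p38 delta), a kinase known from epithelia, was chosen for description after its values were seen because it had the highest mean of all members. It had blood levels of 13.28, 8.11, 9.81 and 7.86 and endometrial levels of 12.30, 11.59, 13.33 and 10.22. Animals 2 to 4 had log2 ratios of 2.36 to 3.52, and animal 1, whose blood level was far above the others, had -0.98. The mean was 2.10 ± 2.12 (adjusted p = 0.284), and the epithelial markers had median log2 ratios of 3.56, 3.23, 4.99 and 3.47 in the same animals. MAPK12 (p38 gamma) had mixed signs and a mean of -0.42.

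MAPK6 (ERK3), an atypical kinase outside the main branches, was the remaining MAP kinase with lower values in 4 of 4 animals. Its blood levels of 15.22, 14.13, 14.70 and 13.81 lay above its endometrial levels of 12.93, 13.53, 13.70 and 13.41 without overlap. Animal 1 accounted for the largest ratio of -2.29, and the mean was -1.07 ± 0.85 (adjusted p = 0.354). The other atypical kinases MAPK4 and MAPK15 had means of -0.10 and -0.01.

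Below the MAP kinases, MAPKAPK3, a kinase that p38 activates, had blood levels of 14.38, 13.86, 12.86 and 13.86 and endometrial levels of 14.12, 14.97, 14.69 and 13.99. Its log2 ratios of -0.25, 1.11, 1.83 and 0.14 had a mean of 0.70 ± 0.94. MAPKAPK5 had a mean of -0.35. Neither exceeded the spread between animals.

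The 10 tested phosphatases stood on both sides of 0, with 3 lower and 2 higher in the endometrium in 4 of 4 animals. DUSP6, a cytoplasmic phosphatase for ERK whose RNA is induced by ERK signaling, had blood levels of 15.53, 15.68, 13.56 and 14.38 and endometrial levels of 17.13, 15.85, 16.36 and 15.72. The endometrial levels were all above the blood levels, although animal 2 differed by 0.17. The mean log2 ratio was 1.48 ± 1.08 (limma, SE = 0.56, adjusted p = 0.272).

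DUSP5, a nuclear phosphatase for the same kinases, had the other direction. Its blood levels were 10.46, 10.05, 11.16 and 9.75 and its endometrial levels 7.09, 9.85, 8.74 and 9.25. The ratios of -3.37, -0.20, -2.42 and -0.51 had a mean of -1.62 ± 1.52 (adjusted p = 0.300). The endometrial level of animal 2 lay above the blood level of animal 4, so the tissues overlapped.

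DUSP1, an inducible nuclear phosphatase that acts on p38 and JNK, had blood levels of 16.69, 13.37, 15.13 and 14.18 and endometrial levels of 16.05, 15.79, 16.01 and 14.76. It was higher in the endometrium in 3 of 4 animals with a mean log2 ratio of 0.81 ± 1.26, and animal 1 had the highest blood level and a ratio of -0.64. DUSP2, a phosphatase of activated blood cells chosen after its values were seen, had log2 ratios of -2.01, -1.90, -2.69 and 0.24. DUSP10, which acts on JNK and p38, had a mean of -0.49 with mixed signs.

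The atypical phosphatases lack the domain that docks on MAP kinases. DUSP11, an enzyme that acts on RNA, had blood levels of 11.43, 13.12, 13.99 and 13.91 and endometrial levels of 10.96, 11.13, 10.53 and 13.26. DUSP12, which carries a zinc-binding domain, had blood levels of 13.17, 14.03, 14.10 and 13.47 and endometrial levels of 12.58, 12.54, 11.49 and 12.96. Both had their largest difference in animal 3, and the tissues of DUSP12 did not overlap.

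The mean log2 ratio was -1.64 ± 1.39 for DUSP11 (adjusted p = 0.275) and -1.30 ± 0.98 for DUSP12 (adjusted p = 0.303). DUSP23 had the smallest spread of all members, with log2 ratios of 0.65, 1.34, 0.80 and 1.03 and a mean of 0.96 ± 0.30 (adjusted p = 0.342). DUSP26 had the highest single ratio, 4.70 in animal 1, beside -0.91, 1.26 and 1.59 in the other animals. Its endometrial level was 14.65 and 14.28 in animals 1 and 3 but 8.86 in animal 2.

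DUSP16, a phosphatase for JNK, had no probe that met the rule, and neither did MAP2K7, MAP3K7 or MAPKAPK2. Probes whose descriptions assign them to these genes were read beside the members, as 27 probes for 18 genes lay outside the rule, 25 of them tested and 0 called by limma or by the methods' analysis of variance after adjustment. At an unadjusted limma p of 0.05 or less with a fold change over 2 there were 6, all lower in the endometrium. That criterion was met by 8.05% of all tested probes in the lower and 7.98% in the higher direction. The 6 were the 3 probes described as similar to DUSP16, the 2 described as similar to MAP3K5 and the MAPKAPK2 probe, so several were probes of 1 gene. The 25 probes had a median log2 ratio of -0.27, with 4 lower and 2 higher in 4 of 4 animals. Over all tested probes the shares lower and higher in 4 of 4 animals were 15.2% and 9.82%. The 3 probes described as similar to DUSP16 had mean log2 ratios of -2.64, -2.32 and -1.94. The brightest blood level of each of them was that of animal 1.

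LOC536649, whose sequence is given above, had blood levels of 12.84, 10.05, 11.22 and 11.01 and endometrial levels of 8.90, 6.20, 9.56 and 9.88, without overlap (adjusted p = 0.150). LOC514942 and LOC618644 were lower in the endometrium in animals 1 to 3, by log2 ratios between -3.94 and -2.46, and higher in animal 4 by 0.46 and 1.18. LOC618644 was below the lowest signal well above background in the endometrium of animals 2 and 3, where that signal gives ratios of -1.10 and -1.01. Of the 3 probes, the reference gene table named LOC618644 as DUSP16 and had no entry for the others. MAPKAPK2 and MAP2K7 had mean log2 ratios of -1.83 and -1.36, lower in 3 of 4 animals, and MAP3K7 had 0.13. Besides MAP4K5, the probe with higher values in 4 of 4 animals was 1 of 2 for DUSP3, a small phosphatase for ERK and JNK, with a mean of 0.71, but it was well above background in no blood channel. The second DUSP3 probe had 0.53 with mixed signs, DUSP4 had 0.25, and the 2 probes of DUSP7 had 0.73 and -0.50.

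**Figure D3:**
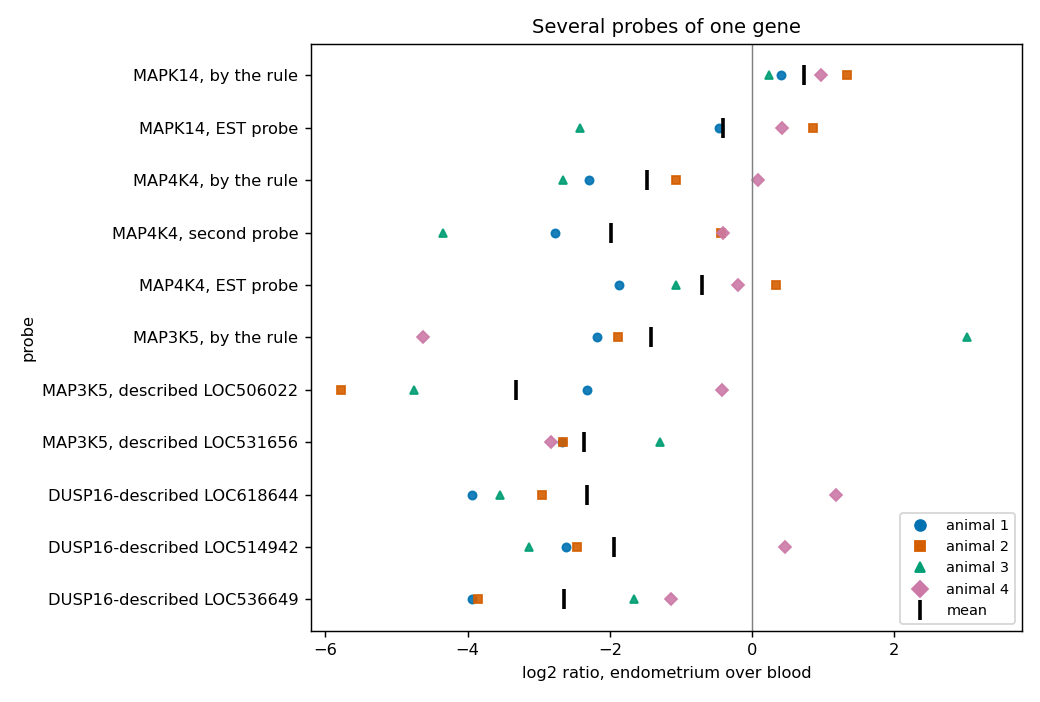
Log2 ratios of endometrium over blood (x axis) for several probes of MAPK14, MAP4K4 and MAP3K5 and for the 3 probes described as similar to DUSP16 (y axis); points are the 4 animals, drawn as measured also where a level was below background, and black bars the means. The MAP4K4 and MAP3K5 probes share the sign of their mean, those of MAPK14 do not, and the MAP3K5 member differs in animal 3.

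The animals contributed unequally. Animal 3 had the largest absolute log2 ratio of the 4 animals for 20 of the 43 members (46.5%, against 46.1% of all tested probes), and animal 4 had the smallest for 20 (46.5%, against 41.0%). The SD of the ratios over animals had a median of 1.08 over the members and 1.12 over all probes, and it ranged from 0.30 for DUSP23 to 3.20 for MAP3K5. The largest difference between the 2 arrays of an animal in 1 tissue had a median of 0.25 over the members and reached 2.62 for MAPK10. In 41 of the 43 members the SD between animals was larger than that difference. The animals also differed in day of pregnancy, with animal 1 at the earliest day, and the part of the day was not tested.

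The other genes of the pathway comprised 110 genes in 6 lists, of which 94 had a probe and 92 were tested. By limma 0 genes of these lists were called, and 0 were called by the methods' analysis of variance after adjustment. At an unadjusted limma p of 0.05 or less with a fold change over 2 there were 18 of the 92. That criterion was met by 8.05% of all tested probes in the lower and 7.98% in the higher direction. Over all tested probes 15.2% were lower and 9.82% higher in 4 of 4 animals, to be set beside the counts below. The 24 upstream genes tested, from RAS to the TRAF and IRAK adaptors, had a median log2 ratio of -0.51, with 6 lower and 1 higher in 4 of 4 animals. RASGRP2, an exchange factor of blood cells, had a mean of -2.48 and the adaptor GRB2 had -1.62, while the small GTPase RRAS had 2.72 and the kinase ARAF 0.31. The scaffolds and inhibitors had a median of 0.09 over 17 genes, with means of -1.24 for the JNK scaffold SPAG9 and -0.99 for RASA1, which switches RAS off, and of 2.14 and 1.49 for SPRY2 and SPRED2, inhibitors of RAS signaling. The mean of RASA1 rested on animal 3, with log2 ratios of -0.40, 0.46, -4.23 and 0.21. Its endometrial level of 3.49 in that animal lay below the lowest signal well above background.

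The target transcription factors had a median of -0.05 over 26 genes, with 7 higher and 3 lower in 4 of 4 animals. FOSB and JUN had means of 2.56 and 2.07, the latter from 3.11, 1.098, 2.74 and 1.33 in animals 1 to 4, and FOSL1 and MEF2D had -1.67 and -1.43. JUN and FOSB also belong to the list of genes that tissue dispersal can move, whose median was 2.05.

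The cytokine genes and RNA regulators downstream of p38 had a median of -1.65 over 9 genes, with 4 lower and 1 higher in 4 of 4 animals. PTGS2, the inducible prostaglandin synthase, had log2 ratios of -5.71, -4.13, -1.59 and -0.91, and IL1B had -4.48, -2.47, -3.33 and -0.02. TNF and ZFP36L1 had means of 0.60 and 0.50. The adjusted p was 0.185 for PTGS2 and 0.202 for IL1B. The blood of animal 1 stood apart in both, with log2 levels of 17.49 for PTGS2, against 11.61 to 12.12 in the other animals, and of 17.11 for IL1B, against 9.92 to 11.23. Over the 4 animals, the list's medians were -3.93, -1.55, -0.77 and -0.01, so that animal 4 was near 0. The granulocyte markers had medians of -4.04, -2.21, 2.15 and -0.10 in the same animals. The monocyte and macrophage markers had medians of 1.32, 0.39, 2.71 and 3.15, and CD14 among them had log2 ratios of -2.09, 0.31, 0.65 and 0.44. The part of either list in these values was not tested.

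Among the 7 downstream kinases, RPS6KA5, a nuclear kinase that ERK and p38 activate, had a mean of -2.57 and MKNK2, which acts on a translation factor, had -1.02, while the ribosomal S6 kinases RPS6KA1 and RPS6KA3 had 1.04 and 0.70. The list had a median of -0.26. Among the other phosphatases that act on the cascade, PPP2CA, a catalytic subunit of PP2A, had a mean of -1.18 and PPM1D had -0.59, both lower in 4 of 4 animals. PPP5C and PPM1B had 0.86 and 0.77, the latter higher in 4 of 4 animals, and the 9 tested genes of the list had a median of -0.14.

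**Figure D4:**
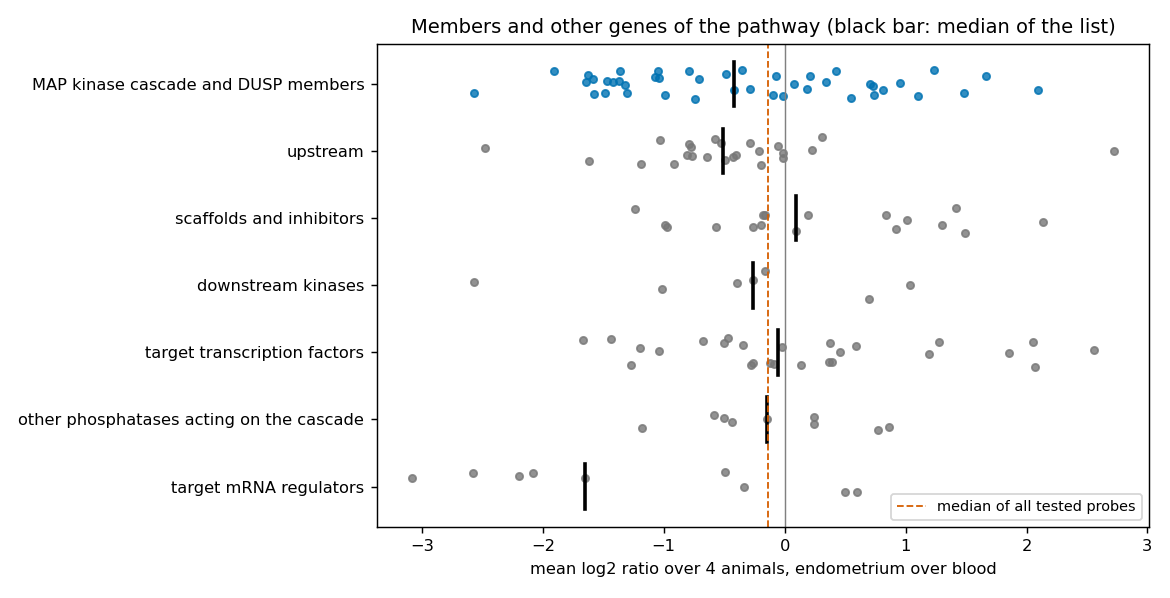
Mean log2 ratio of endometrium over blood over 4 animals (x axis) for the 43 tested members and for the tested genes of the 6 other lists (y axis); each point is a gene, black bars are medians of lists, and the dashed line is the median of all tested probes. The members have a median of -0.42 and the cytokine genes and RNA regulators, on the bottom line, one of -1.65.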

How the data were processed

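CD14+ cells of blood and endometrium of 4 cows were compared on 8 arrays. Per the labels, the authors quantified spots with Agilent Feature Extraction 9.5, while the file headers give version 10.5.1.1. The authors deposited log2 values, which their methods describe as adjusted by lowess in each array and then by quantiles, and the scanner intensity of each spot before normalization. The 2 spots of a probe were averaged, and 16653 of 21475 probes passed the filter on background. Ratios within animals were tested against 0 with limma 3.58.1 in R 4.3.3 (lmFit and eBayes), adjusted by Benjamini-Hochberg over all tested probes. An exact 2-sided permutation of 4 animals cannot give a p under 0.125. The labels pair both tissues of an animal, and their deviations from the tissue means correlated with r of 0.24 to 0.63. A channel had 65.2% to 82.9% of its spots well above background and none saturated, and 8 arrays limit the precision.

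The members and lists were chosen with earlier results of these data known, and 1 further gene that met the rule is not reported here. Members described were up to 12 in each direction of 1 sign in 4 of 4 animals, those that define each tier, and the 3 with the largest spread; of other lists, the 2 largest changes in each direction. Symbols were set against a gene table of assembly ARS-UCD2.0, which gave the same symbol for 44 of the 44 member probes it holds. Its coordinates were not used because the array was built on another assembly. On simulated data with the moderated spread of the 16653 probes, 10%, 52% and 74% of probes changed by 2, 3 and 4 on the log2 scale were recovered, and 0% of those changed by 1. With each probe's own measured spread 0% were recovered at any of these sizes. Alternatives changed normalization, background, filter, pairing, arrays, dye and slide terms, animals, probe, test and threshold. Whole-series enrichment, qPCR and flow cytometry were not analysed here.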

Additional observations from a re-analysis of the deposited data

Results flagged for a closer look

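In 72 sets of 4 values, the blood levels, endometrial levels and log2 ratios of the 24 described members that met the rule, 8 held an animal far from the other 3 by Dixon's ratio, where chance gives about 1 set in 20. MAP2K3 and MAP2K4 had endometrial levels of 15.998 and 13.15 in animal 4, with the next highest at 15.01 and 11.66. MAP3K15 had a log2 ratio of -2.20 in animal 3, with the next at -0.73. MAP4K1 had a blood level of 13.10 in animal 1, below 14.42 in the nearest animal. MAP3K3 had a blood level of 15.21 in animal 4, above 14.63 in the nearest. MAPK3 had an endometrial level of 14.28 in animal 2, above 13.04 in the nearest. MAP2K2 had a blood level of 13.63 in animal 1, with the nearest at 11.92. DUSP26 had a blood level of 13.01 in animal 3, with the nearest at 10.26.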

How the results depend on the processing

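The median log2 ratio of the members stayed between -0.61 and -0.20 under every alternative but the last described here, and 15 to 17 members had 1 sign in all 4 animals, or 18 to 22 where 3 animals were used. Of 24 described members, 21 kept their sign under those alternatives. The exceptions were MAPK9 (0.093 with normexp, 0.015 with re-centered values, 0.050 without background correction, 0.0051 with technical replicate 1 alone, -1.19 to 0.85 when 1 animal was left out), MAP2K2 (-0.00087 with technical replicate 1 alone, -0.28 to 0.64 when 1 animal was left out) and MAP2K6 (-0.48 to 1.097 when 1 animal was left out).

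No member was called, but 1 was with probes above background in all channels and with a dye or slide term in a fit to the 8 arrays, MAP4K2 in each, and 5 were by the methods' analysis of variance at its unadjusted threshold. Calls over all probes, 224 as reported, were 11 with normexp, 50 without background correction, 123 without a filter, 104 with probes above background in all channels, 38 without the replicate block, 0 by the methods' analysis of variance after adjustment and 1229 before it. Leaving out 1 animal gave 0 (animal 4) to 180 (animal 2) calls, with 64 and 95 without animals 1 and 3, and 0 members were called in each.

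A last alternative, added once the values were known, reads the scanner files as attached. It gave 0 calls, 4 members of 1 sign in every animal and a member median of 0.15. Log2 ratios then changed sign for MAP4K2 (0.73), MAP3K8 (1.06), DUSP5 (0.15), MAP2K3 (0.44), MAP2K4 (0.48), DUSP12 (0.0030), MAPK6 (0.58), MAPK8 (0.38), MAP3K3 (0.26), MAP3K5 (1.28), DUSP6 (-0.069), MAPK3 (-0.40), DUSP23 (-0.51), MAPK14 (-0.55), DUSP1 (-0.35) and DUSP26 (-0.96). The cause of these changes is the exchange of tissues in animals 1, 2 and 4 by construction; for the other alternatives the cause was not tested.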
